A study of Mus musculus with 9 samples.

Results

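The bone morphogenetic protein (BMP) ligands, their secreted antagonists and a pair of their target genes were examined in the urogenital sinus, the embryonic structure from which the prostate buds. The set held 10 of the 18193 genes that have a probe set of their own on the array: the ligands Bmp2, Bmp4, Bmp5 and Bmp7, the antagonists and modulators Nog, Grem1, Chrdl1 and Bmper, and the targets Id1 and Id2. They were taken by symbol, as every probe set annotated to one of these symbols alone, which gave 19 of 45101 probe sets. Of these, 18 passed the filter on dim probe sets and were tested; the third probe set of Bmp5 did not and is given as values.

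BMP ligands are secreted dimers of the TGF-beta superfamily. They bind pairs of type I and type II serine/threonine kinase receptors, which phosphorylate Smad1, Smad5 and Smad9, and these enter the nucleus with Smad4 and switch on targets such as the Id genes. Noggin, gremlin and the chordin family hold ligands away from their receptors. In the urogenital sinus, Bmp4 and Bmp7 are known to restrain prostatic budding and branching, and noggin to counter them.

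RNA came from C57BL/6 fetuses and newborns, with 1 array for each of 3 agents at each of 3 ages, 9 arrays in all. Dams were given 20 µg/kg/day of bisphenol A (BPA), a weakly estrogenic building block of plastics, or 0.2 µg/kg/day of diethylstilbestrol (DES), a potent man-made estrogen. Both were given in tocopherol-stripped corn oil, and the Control arrays came from vehicle exposure. The doses differ by agent, so BPA and DES values stand side by side and are not set against each other. Dosing ran from embryonic day 13 to 16, and sinus tissue was taken at E17, E18 and on the day of birth (P0) after removal of bladder, urethra and the Wolffian and Mullerian structures in males and females. The labels give neither the sex nor the number of animals behind an array. With 1 array for each agent and age, an agent was repeated only over ages. The p-values rest on the spread between arrays that is left after the fitted age and agent terms. That spread mixes array noise, part of which may be technical, with any response particular to an age. In bulk tissue, fewer cells of a type and less RNA per cell cannot be told apart.

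Before scaling, the BPA P0 array was dim, with a trimmed mean intensity of 157 against 235 to 277 on the others. Values below are quantile-normalised signals on a linear scale, and differences are on the log2(signal + 5.46) scale. Of 13 markers fixed for the sinus, 10 had a probe set of their own and all 10 were above the filter, with Shh at 1136 to 1949 and Hoxd13 at 1080 to 1596. Some marker lists were high or low on particular arrays, and the source of these signals was not tested. The 9 gonad markers, of which 3 were above the filter, had a summed signal of 3669 on BPA P0 and 544 to 639 on the others. Amh read 3.33 to 8.10 on those others. Inha gave 1813 and Hsd3b1 886 of the BPA P0 sum. Star (101) and Sox9 (184) on BPA P0 lay within their ranges elsewhere, 37.6 to 121 and 141 to 267. The 8 squamous keratinisation markers summed to 8322 on BPA E18, 21393 on BPA P0 and 1267 to 2510 on the others. The 10 skeletal muscle markers summed to 11051 on BPA E17 and 12891 to 19362 elsewhere. They lay a median of -1.60 log2 units from their means on BPA E17. Acta1 (7771) and Ckm (1040) of that list went the other way, with their highest signals on that array. The 4 red cell markers with a probe set of their own, of which 2 were above the filter, summed to 2405 on BPA E18 against 400.5 to 1474 elsewhere. Alas2 gave 1997 of the 2405, whereas Slc4a1 (314) and Hbb-y (203, below the filter) were highest on DES E17. The 4 gut markers, of which 1 was above the filter, summed to 543 on BPA E17 and 77.6 to 207 elsewhere. Fabp2, which was below the filter, gave 378 of the 543.

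Other marker lists differed between agents on some or all arrays. The 5 urothelium markers summed to 3888 to 4563 on Control, 4884 to 6328 on DES and 5291 to 7335 on BPA arrays. Every exposed array was above every Control array in this sum and by median deviation. Of the 5 markers taken singly, only Upk3a separated the arrays in this way. The 6 neuron and glia markers summed to 4597 to 5212 on Control, 4091 to 4588 on DES and 4114 to 4519 on BPA. Every exposed array was below in this sum, of which Stmn2 alone gave 2414 to 3079. By median deviation the groups overlapped, with Control E17 at -0.034 and DES E17 at -0.005. The 8 smooth muscle markers summed to 21590 on Control E18 and 23134 on Control P0, against 27837 to 38140 on the other arrays. The 5 Wolffian and Mullerian duct markers, of which 4 were above the filter, summed to 604 to 662 on Control and 728 to 756 on DES. On BPA they summed to 671, 706 and 578 at E17, E18 and P0, so BPA P0 was below every Control array in this sum. By median deviation BPA P0 (-0.136) lay above Control E17 (-0.167). The part of these tissues in the agent differences of the members was not tested.

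Promoter sequence was in the RefSeq table (GRCm38.p6) for 5 of the 10 genes, Bmp4, Bmp5, Grem1, Bmper and Id2. The 250 bases before the start site are shown for a ligand, an antagonist and a target, as examples of the sequence that Smads and nuclear receptors can bind near a start site. Capitals mark the GC-rich motifs bound by BMP Smads, GGCGCC and GGAGCC, and the nuclear receptor half-site AGGTCA, each on either strand.
Bmp4 promoter (chr14:46390670-46390919, - strand): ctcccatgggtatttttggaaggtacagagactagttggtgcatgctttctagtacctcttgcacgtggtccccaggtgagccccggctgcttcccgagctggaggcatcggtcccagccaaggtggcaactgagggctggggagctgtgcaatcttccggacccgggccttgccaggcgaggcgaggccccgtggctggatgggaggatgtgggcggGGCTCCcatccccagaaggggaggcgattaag
Grem1 promoter (chr2:113758649-113758898, - strand): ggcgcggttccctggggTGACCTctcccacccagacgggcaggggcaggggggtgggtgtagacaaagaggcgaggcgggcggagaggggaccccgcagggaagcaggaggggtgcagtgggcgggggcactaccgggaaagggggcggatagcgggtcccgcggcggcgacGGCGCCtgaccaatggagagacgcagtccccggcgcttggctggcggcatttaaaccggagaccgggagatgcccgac
Id2 promoter (chr12:25096093-25096342, - strand): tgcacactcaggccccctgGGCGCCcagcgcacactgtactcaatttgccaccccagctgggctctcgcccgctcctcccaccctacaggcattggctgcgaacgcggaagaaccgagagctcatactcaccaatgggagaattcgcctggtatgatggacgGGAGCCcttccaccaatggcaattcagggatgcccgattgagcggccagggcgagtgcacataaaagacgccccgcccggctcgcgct
Id2 held both GC-rich motifs, GGCGCC at 231 to 226 bases and GGAGCC at 88 to 83 bases before the start. Grem1 held GGCGCC at 78 to 73 bases and a half-site at 233 to 228 bases, and Bmp4 held GGAGCC, as GGCTCC, at 32 to 27 bases. Bmper, not shown, held GGAGCC 3 times, and Bmp5, not shown, did not hold any of these motifs. Of 32841 promoters of the same length, 9.59% held GGCGCC, 26.0% GGAGCC and 14.0% AGGTCA. The palindromic estrogen response element, GGTCA and TGACC with any 3 bases between them, was in 0 of the 5 and in 0.0639% of all. A match describes these letters and is not a binding site.

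No member passed the test for a difference by agent or age, and most varied over the arrays about as much as probe sets in general. The highest of the 9 signals was a median of 1.73 times the lowest over the 18 tested probe sets, against 1.60 over all 26383 tested. Id1 had the smallest such ratio among the members, 1.31, and the 3 Bmp5 probe sets ran from 1.99 to 3.95. By the limma fit with age and agent as factors, 0 of 18 passed at an adjusted p under 0.05 in any of the 5 comparisons of agents and ages. Over all tested probe sets the limma share was 0% for BPA against Control, for DES against Control, for E18 against E17 and for P0 against E18, and 0.091% for P0 against E17. At an unadjusted limma p under 0.05 the members gave 4, 2, 3, 2 and 1 in that order, where all probe sets gave 7.86%, 5.66%, 2.74%, 13.5% and 17.3%. Split by direction, 0 were higher and 4 lower with BPA (3.52% and 4.34% of all) and 0 higher and 2 lower with DES (2.9% and 2.75%). Between ages, 1 was higher and 2 lower from E17 to E18 (1.46% and 1.28%), 2 and 0 from E18 to P0 (5.95% and 7.59%), and 1 and 0 from E17 to P0 (7.99% and 9.36%). 

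**Figure D1:**
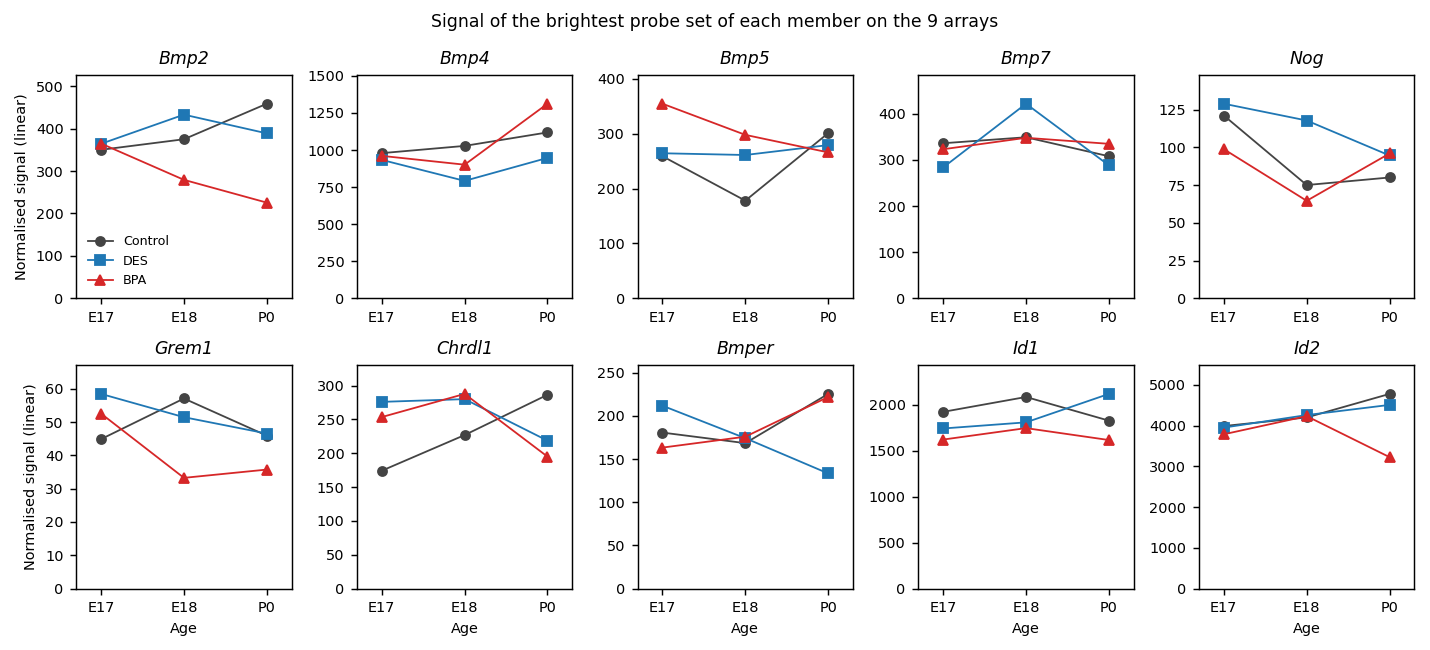
Normalised signal (linear, each axis from 0) of the brightest probe set of each gene at E17, E18 and P0, with 1 array per point for Control (circles), DES (squares) and BPA (triangles). Bmp2 on BPA arrays ran from 365 at E17 to 226 at P0 while Control ran from 350 to 459. The 3 BPA values of Id1 (1616 to 1746) lay below the 3 Control values (1827 to 2085), as in 5.27% of all probe sets.

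Among the ligands, Bmp2, which acts in bone, heart and epithelial development, read lower with BPA than with vehicle at the later ages, without passing the adjusted test. Its probe set 1423635_at read 350, 375 and 459 with vehicle at E17, E18 and P0, 364, 433 and 389 with DES, and 365, 279 and 226 with BPA. The 3 agents lay within 350 to 365 at E17, whereas BPA had the lowest signal at E18 and P0. BPA minus Control, in log2 units, came to 0.06, -0.42 and -1.01 at the successive ages. Across ages it was -0.46 ± 0.18 (SE; means 290 ± 70.2 and 395 ± 56.9, SD, n = 3 arrays; limma unadjusted p = 0.0319, adjusted p = 0.586). DES differed from Control by 0.01 (95% interval -0.40 to 0.42).

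The change of the BPA difference per age step was -0.53 ± 0.15 log2 units for Bmp2 (limma unadjusted p = 0.00604, adjusted p = 0.424). Among the members, 4 of 18 had an unadjusted limma p under 0.05 for this term against 8.49% of all probe sets, all 4 of them negative (4.79% of all; 3.7% positive), and 0 passed after adjustment (0.00758% of all). The BPA difference of Bmp2 over all ages was -0.24 without the BPA P0 array, -0.26 without Control P0 and -0.70 without BPA E17, and it was 0.034 with BPA E17 as the only BPA array. The squamous markers were high on the same arrays, BPA E18 and BPA P0, and their part in the Bmp2 values was not tested.

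Bmp4, the mesenchymal ligand known to restrain budding, was nearly level at E17 and spread out by birth. Probe set 1422912_at read 979, 1028 and 1119 with vehicle at E17, E18 and P0, 933, 792 and 947 on DES arrays, and 960, 901 and 1312 on BPA arrays. Each agent's P0 array was above its own E18 array, though DES P0 lay below Control E18. The P0 mean was 1126 ± 183 and the E18 mean 907 ± 118 (SD, n = 3), a log2 difference of 0.31 ± 0.11 (limma unadjusted p = 0.0169, adjusted p = 0.294). The deposited values gave 0.13, where the median of all probe sets was -0.17. The fit without BPA P0 gave 0.19.

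The 3 DES arrays of Bmp4 lay below the 3 Control arrays, with log2 differences of -0.07, -0.37 and -0.24 at E17, E18 and P0. The fitted difference from Control was within -0.46 to 0.01 (95% interval; limma adjusted p = 0.847). For BPA it was 0.00, with an interval of -0.23 to 0.24. Among all genes, Ptpn9, Itgb2 and Rchy1 had the patterns most like Bmp4 over the 9 arrays, with Pearson correlations of 0.95, 0.95 and 0.95 and Spearman correlations of 0.80, 0.97 and 0.87. They were the closest of 13399 genes searched on arrays that share agents, ages and scaling.

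Bmp5, a ligand of skeletal and lung mesenchyme, was highest on BPA arrays before birth. Its brightest probe set, 1455851_at, read 259, 178 and 301 on Control, 264, 261 and 279 on DES, and 355, 298 and 266 on BPA. Probe set 1421283_at read 127, 95.8 and 84.8 on Control, 118, 68.1 and 96.7 on DES, and 138, 123 and 124 on BPA. The dim 1421282_at read 54.1, 17 and 35.4, then 31.6, 28.5 and 26.0, then 67.1, 66.2 and 37.3. All 3 probe sets had their highest signal on BPA E17, and each had Control and BPA arrays that overlapped.

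The fitted BPA difference of Bmp5 was within -0.05 to 0.72 log2 units for the brightest probe set (95% interval; limma adjusted p = 0.69). The second probe set was above Control at each of the 3 ages under BPA, the 1 of 18 tested member probe sets to be so against 14.4% of all. The third, which was not tested, was also above Control at each age. The second probe set, 1421283_at, also read lower at E18 than at E17 in each agent. Its fitted difference was -0.43 ± 0.18 (limma unadjusted p = 0.0378, adjusted p = 1), or -0.26 without DES E18.

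Bmp7, a ligand of kidney and genital tract epithelium, differed least between agents in its brightest probe set. That probe set, 1435479_at, read 336, 349 and 308 on Control, 284, 422 and 288 on DES, and 323, 348 and 335 on BPA. The BPA difference was 0.02 (95% interval -0.28 to 0.32) and the DES difference -0.02 (-0.32 to 0.28). Its other probe sets gave different patterns. Probe set 1418910_at read 126, 191 and 182 on Control against 114, 132 and 132 on DES and 156, 137 and 100 on BPA, and its BPA difference moved by -0.56 ± 0.18 per age step (limma unadjusted p = 0.0147, adjusted p = 0.494), or -0.35 without Control E17. Probe set 1432410_a_at read 70.0, 108 and 82.7 on Control and 62.0, 41.0 and 68.3 on DES, a difference of -0.57 ± 0.24 (limma unadjusted p = 0.0396, adjusted p = 0.847). Without Control E18 it was -0.29 and without DES E18 -0.31. Over the 9 arrays the brightest Bmp7 probe set correlated with these at Pearson 0.07 and -0.40, so the gene's difference depended on the probe set read.

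**Figure D2:**
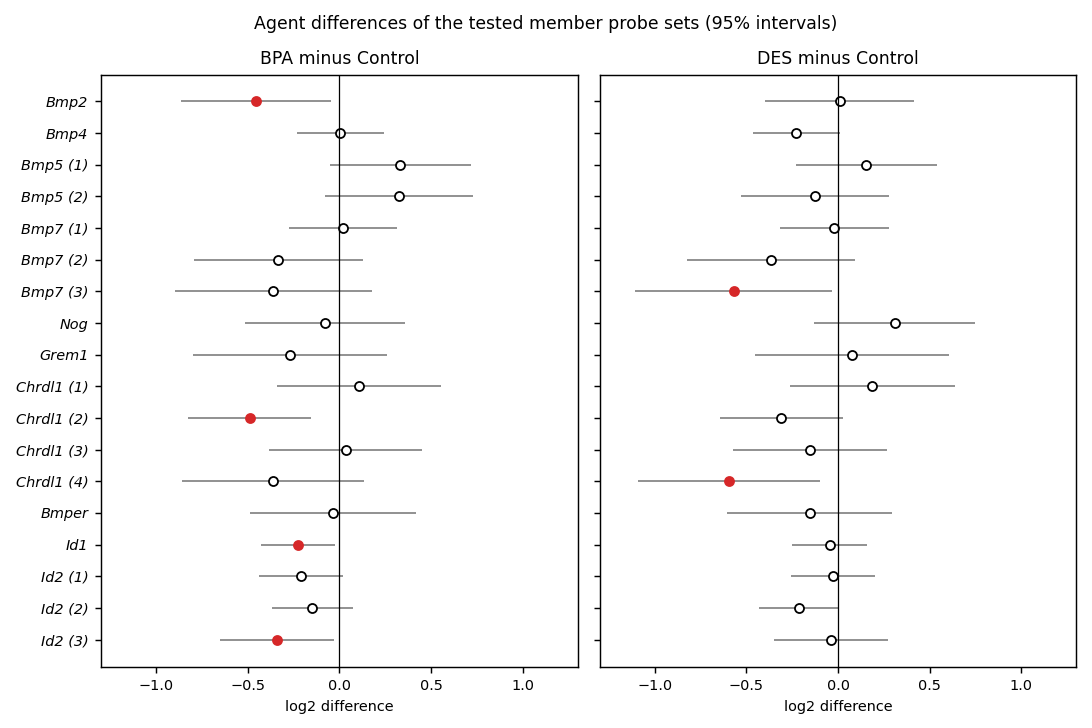
Fitted log2 differences of BPA (left) and DES (right) from Control for the 18 tested member probe sets, with 95% intervals; numbers in parentheses count a gene's probe sets from the brightest, and filled points have an unadjusted limma p under 0.05. All 4 filled points for BPA (Bmp2, the second Chrdl1, Id1, the third Id2) and both for DES (the third Bmp7, the fourth Chrdl1) lie below 0, and 0 pass after adjustment.

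Among the antagonists, noggin (Nog), which binds BMP2, BMP4 and BMP7 and blocks their receptor contacts, was highest at E17. Probe set 1422300_at read 121, 75.1 and 80.1 on Control at E17, E18 and P0, 129, 118 and 94.7 on DES, and 98.8, 64.6 and 96.0 on BPA. The E18 array was below the E17 array in each agent, but DES E18 lay above BPA E17. The mean was 116 ± 15.6 at E17 and 85.9 ± 28.2 at E18 (SD, n = 3), a log2 difference of -0.45 ± 0.20 (limma unadjusted p = 0.0449, adjusted p = 1). DES read above Control at each age, as 14.7% of all probe sets did, and its fitted difference was within -0.13 to 0.75 (95% interval; limma adjusted p = 0.857). Tacc3, Hgh1 and Glcci1 had the patterns most like Nog, at Pearson correlations of 0.94, 0.93 and 0.90 and Spearman correlations of 0.97, 0.95 and 0.90 over the 9 arrays.

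Gremlin (Grem1), an antagonist of BMP2 and BMP4 in limb and kidney, was dim. Probe set 1425357_a_at read 44.9, 57.1 and 45.9 on Control, 58.4, 51.5 and 46.6 on DES, and 52.5, 33.2 and 35.7 on BPA, where the filter stood at a signal of 41.2. The lowest signals were those of BPA E18 and BPA P0, and the fitted BPA difference was within -0.80 to 0.26 log2 units (95% interval; limma adjusted p = 0.829).

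Bmper, a chordin-like protein that can restrain or assist BMP signalling, read 181, 168 and 226 on Control, 212, 174 and 133 on DES, and 163, 176 and 222 on BPA (probe set 1429273_at). Control and BPA were highest at P0 and DES was lowest there, at -0.73 log2 units from Control. The DES difference moved by -0.48 ± 0.17 per age step (limma unadjusted p = 0.0228, adjusted p = 0.646), where 2 of 18 member probe sets, both negative, had an unadjusted p under 0.05 (7.21% of all; 3.29% negative and 3.92% positive) and 0 members (0% of all) passed. The term was -0.25 without DES P0 and -0.26 without Control P0.

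Chordin-like 1 (Chrdl1), an antagonist of BMP4 known from mesenchyme and eye, had 4 probe sets whose patterns differed. The brightest, 1434201_at, read 174, 227 and 287 on Control, 276, 280 and 219 on DES, and 254, 288 and 195 on BPA. Control was lowest at E17 and highest at P0, whereas both exposed groups were lowest at P0. Its difference from Control moved by -0.53 ± 0.16 log2 units per age step for BPA and -0.51 ± 0.16 for DES (limma unadjusted p = 0.0104 and 0.0125, adjusted p = 0.469 and 0.643). Both terms use the same Control arrays, and without Control P0 they were -0.28 and -0.26. Without BPA P0 the BPA term was -0.27.

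The second probe set of Chrdl1, 1456722_at, read 187, 174 and 261 on Control, 161, 148 and 184 on DES, and 112, 141 and 187 on BPA. Both exposed groups were below Control at each age, with a BPA difference of -0.49 ± 0.15 (limma unadjusted p = 0.00873, adjusted p = 0.459), the smallest p of any member in that comparison. With E17 as the only BPA array it was -0.76. The same probe set had P0 above E17 in each agent, by 0.46 ± 0.15 (limma unadjusted p = 0.0124, adjusted p = 0.188), and above E18, by 0.42 ± 0.15 (unadjusted p = 0.0183 in limma, adjusted p = 0.297). The fourth, 1424945_at, read 76.3, 116 and 118 on Control and 74.7, 49.3 and 75.4 on DES, a difference of -0.60 ± 0.22 (limma unadjusted p = 0.0231, adjusted p = 0.847), or -0.36 without DES E18. The third, 1421295_at, ran from 101 to 153 with no unadjusted p under 0.05 in these comparisons. The brightest probe set correlated with the other 3 at Pearson -0.20, 0.17 and -0.10 over the 9 arrays.

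**Figure D3:**
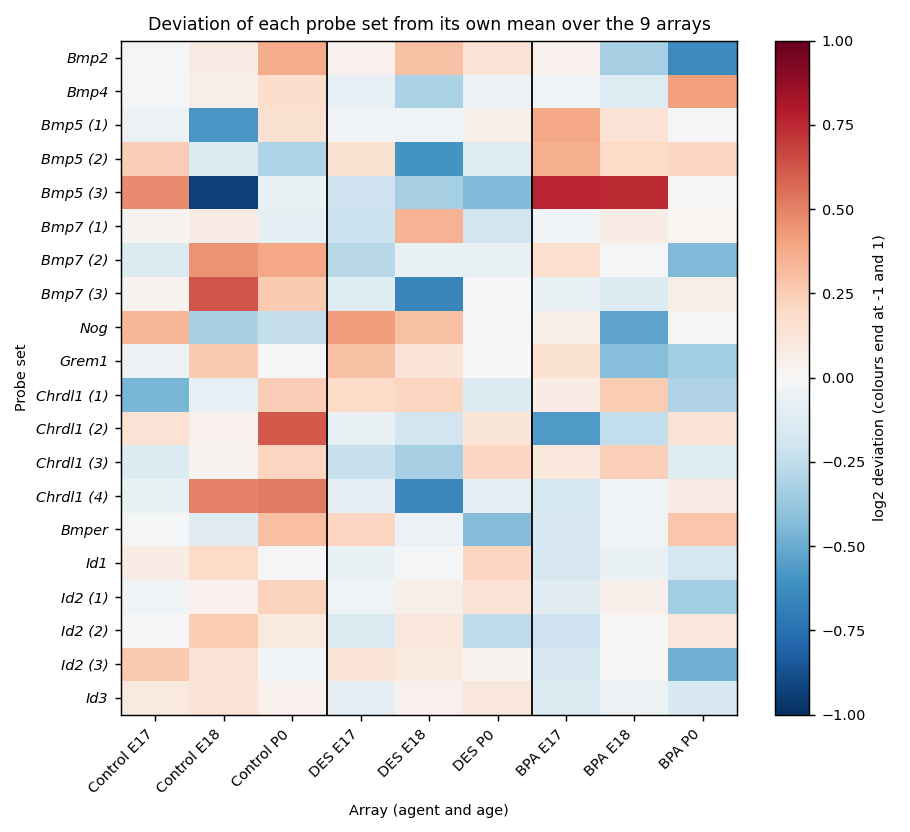
Deviation of each member probe set, and of Id3, from its own mean over the 9 arrays, in log2 units, with arrays ordered by agent and age and colours ending at -1 and 1. Bmp2 is lowest on BPA P0, Id1 and Id3 are below their means on all 3 BPA arrays, and probe sets of Chrdl1 and Bmp7 differ in pattern from each other.

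Among the targets, Id1 varied least over the arrays and stood lower with BPA, without passing the adjusted test. This gene, an inhibitor of basic helix-loop-helix factors and a direct BMP target, read 1923, 2085 and 1827 on Control, 1742, 1809 and 2118 on DES, and 1621, 1746 and 1616 on BPA (probe set 1425895_a_at). Every BPA array was below every Control array, as in 1 of 18 member probe sets and 5.27% of all, while DES overlapped both. With deposited intensities this count was 7 of 18 against 13.6% of all. The BPA difference was -0.25, -0.26 and -0.18 log2 units at E17, E18 and P0. Across ages it was -0.23 ± 0.09 (means 1661 ± 73.4 and 1945 ± 130, SD, n = 3; limma unadjusted p = 0.0334, adjusted p = 0.591). It was -0.19 without the BPA P0 array, -0.20 without Control E17 and -0.18 without Control E18, and stayed below 0 in all 21 alternatives. The limma unadjusted p rose to 0.121 without Control E17, 0.149 without Control E18 and 0.0977 without the intensity trend. With deposited intensities the difference was -0.47, where the median of all probe sets was -0.24. With either other scaling the BPA arrays stayed below the Control arrays. The order from the lowest array was BPA P0, BPA E17, DES E17, BPA E18, DES E18, Control P0, Control E17, Control E18, DES P0; each point is 1 array and has no spread of its own.

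Of all genes, Slc8a1, Id3 and Scube3 had the patterns most like Id1, at Pearson correlations of 0.95, 0.94 and 0.92 and Spearman correlations of 0.92, 0.97 and 0.95 over the 9 arrays. Id3, which encodes a relative of Id1 and is another BMP target, read 2978, 3048 and 2861 on Control, 2595, 2867 and 3005 on DES, and 2522, 2687 and 2498 on BPA. Its BPA arrays lay below its Control arrays, as in 5.27% of all probe sets. The difference was -0.21 ± 0.07 (limma unadjusted p = 0.017, adjusted p = 0.511). Id3 was read on the same arrays and named here for its likeness to Id1, so its values are not independent of the Id1 result.

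Id2, the relative of Id1 whose promoter is printed above, had 3 probe sets. The brightest, 1435176_a_at, read 3992, 4203 and 4781 on Control, 3953, 4261 and 4511 on DES, and 3790, 4235 and 3228 on BPA. The agents lay within 3790 to 3992 at E17 and within 4203 to 4261 at E18, and BPA P0 was the lowest of the 9 arrays. The BPA difference by age step was -0.25 ± 0.10 (limma unadjusted p = 0.0345, adjusted p = 0.555) and turned to 0.052 without BPA P0. It was -0.54 without BPA E17, -0.45 without Control E17 and -0.045 without Control P0. The summed gonad markers were also highest on BPA P0, and their part in the Id2 value was not tested.

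The other Id2 probe sets differed from it. Probe set 1453596_at read 206, 190 and 168 on Control, 188, 183 and 176 on DES, and 152, 172 and 121 on BPA, below Control at each age by -0.42, -0.14 and -0.46 log2 units. Its BPA difference was -0.34 ± 0.14 (limma unadjusted p = 0.0359, adjusted p = 0.601). Probe set 1422537_a_at read 1498, 1783 and 1601 on Control, 1350, 1616 and 1252 on DES, and 1294, 1503 and 1617 on BPA. It was above its E17 value at E18 in each agent, by 0.24 ± 0.10 (limma unadjusted p = 0.0335, adjusted p = 1), although its BPA P0 signal was the highest of the BPA arrays. The patterns most like the brightest Id2 probe set were those of Nalcn, Vmn1r44 and Rapgef2, with Pearson correlations of 0.97, 0.96 and 0.95 and Spearman correlations of 0.93, 0.98 and 0.80.

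**Figure D4:**
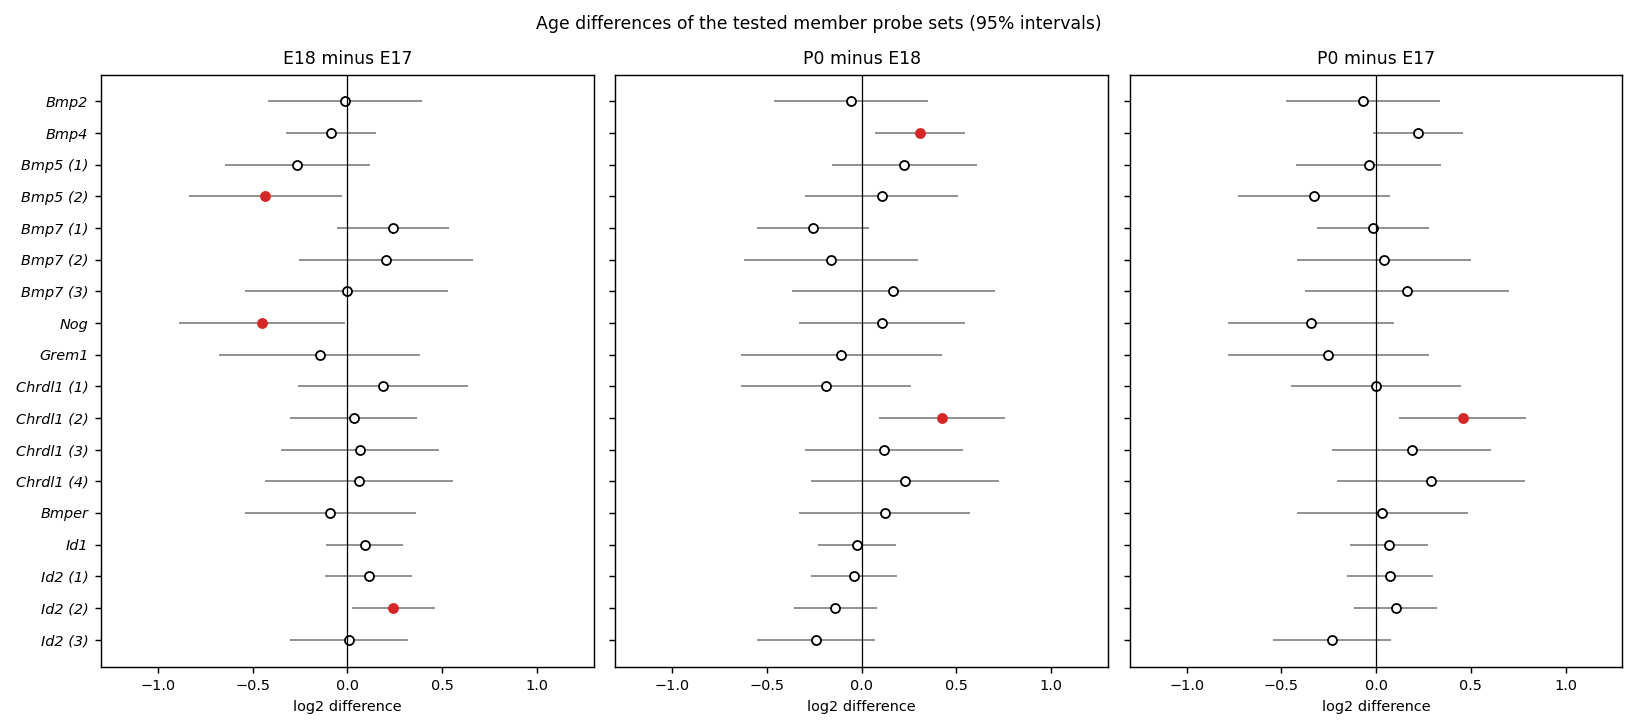
Fitted log2 differences between ages for the 18 tested member probe sets, with 95% intervals; filled points have an unadjusted limma p under 0.05, and numbers in parentheses count a gene's probe sets from the brightest. Nog and the second Bmp5 probe set lie below 0 and the second Id2 probe set above 0 between E17 and E18, Bmp4 and the second Chrdl1 probe set lie above 0 between E18 and P0, and 0 pass after adjustment.

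By direction, 12 of 18 tested member probe sets were lower after BPA (median -0.18 log2 units) and 13 of 18 after DES (median -0.09), where the median over all probe sets was 0.00 in each. Below Control at each of the 3 ages were 5 of 18 for BPA, against 16% of all, and 7 of 18 for DES, against 13%. Each DES array lay below each Control array in 3 of 18 probe sets (Bmp4, the third Bmp7 and the fourth Chrdl1), against 5.03% of all. With deposited intensities that count was 2 of 18 against 2.01%. With deposited intensities the counts at each of the 3 ages were 10 of 18 for BPA against 38.3% of all and 4 of 18 for DES against 6.92%. The 2 exposures share their Control arrays and several probe sets read 1 gene, so these counts are not independent. Each BPA array lay above each Control array in 0 of 18 (5.04% of all), and likewise for DES in 0 of 18 (5.88%).

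Between ages the members' median differences were 0.02 (E18 minus E17), 0.04 (P0 minus E18) and 0.04 (P0 minus E17). From E17 to E18, 5 of 18 were higher within each agent and 3 of 18 lower (14.3% and 13% of all). From E18 to P0 these were 3 and 2 of 18 (15% and 17.2%), and from E17 to P0 4 and 3 of 18 (18.2% and 19%). The E18 arrays were all above the E17 arrays in 3 of 18, the brightest Bmp7 and the brighter pair of Id2 probe sets, and all below in 0 of 18 (5.09% and 4.28% of all). The P0 arrays were all above the E18 arrays in 1 of 18, the second Chrdl1, and all below in 1 of 18, the brightest Bmp7 (6.99% and 7.32%). They were all above the E17 arrays in 0 of 18 and all below in 1 of 18, Nog (9.89% and 9.97%).

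Agent accounted for a median of 37.0% of the sum of squares of a tested member probe set and age for 17.4%, against 21.9% and 27.5% over all tested probe sets. Id1, at 54.8% for agent and 8.77% for age, and Bmp2, at 55.2% and 1.02%, lay at the agent end, and the brightest Bmp7 probe set, at 1.11% and 54.7%, at the age end.

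The rest of the pathway was read from 55 further genes in a list of other ligands, receptors, Smads, secreted modulators and targets, of which 42 were tested. After BPA and after DES 0 of 42 passed in either direction by limma, and 11 of 42 and 15 of 42 differences were above 0, with medians of -0.08 and -0.04, where 49.0% and 50.9% of all probe sets were above 0. At an unadjusted limma p under 0.05, 4 of 42 were lower after BPA and 3 of 42 after DES (4.34% and 2.75% of all probe sets), and 0 were higher after either (3.52% and 2.9%). The type I receptor Bmpr1a read 1352 to 1728, the type II receptor Bmpr2 1635 to 1912 and Smad4 2080 to 2742 over the 9 arrays.

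Follistatin (Fst), which binds activins and some BMPs, was lower in both exposed groups. It read 498, 545 and 677 on Control, 420, 469 and 447 on DES, and 356, 433 and 512 on BPA. The differences were -0.40 ± 0.12 for BPA and -0.35 ± 0.12 for DES (limma unadjusted p = 0.0062 and 0.0133, adjusted p = 0.456 and 0.847), the latter being -0.23 without DES P0. The ligand gene Gdf10 read 2804, 2867 and 3042 on Control, 2267, 2474 and 2808 on DES, and 2299, 2379 and 2508 on BPA, with differences of -0.28 ± 0.07 and -0.21 ± 0.07 (limma unadjusted p = 0.00217 and 0.0109, adjusted p = 0.41 and 0.847). The same Control arrays serve both exposures here. The ligand gene Bmp6 had a DES difference of -0.44 ± 0.19 (limma unadjusted p = 0.0456, adjusted p = 0.847), which was -0.25 without Control P0, -0.27 without DES P0 and -0.66 without Control E18.

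Across ages, 0 of 42 passed by limma in any comparison of ages. Nearest was hemojuvelin (Hjv), a BMP co-receptor of liver and skeletal muscle. It read 138, 231 and 308 on Control, 171, 249 and 296 on DES, and 68.5, 195 and 233 on BPA, and differed between E17 and P0 by 1.20 ± 0.19 (limma adjusted p = 0.0551, from 0.0173 to 0.324 over the alternatives) and between E17 and E18 by 0.90 ± 0.19 (limma adjusted p = 0.898). Its BPA difference was -0.53 ± 0.19 (limma adjusted p = 0.524), which was -0.27 without BPA E17 and -1.05 with E17 as the only BPA array. The median deviation of the skeletal muscle markers was -0.34, 0.40 and 0.60 on Control and -1.60, 0.05 and 0.05 on BPA arrays. Acta1 and Ckm of that list went the other way, reading 7366, 4670 and 4216 and 817, 367 and 467 on Control. The part of these markers in the Hjv values was not tested.

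Between E17 and P0, Fst (0.35 ± 0.12), Fstl1 (0.18 ± 0.06), Gdf10 (0.18 ± 0.07) and the pseudoreceptor gene Bambi (-0.27 ± 0.09) followed, with limma adjusted p = 0.19 to 0.218. Between E18 and P0 the values were 0.18 ± 0.06 for Fstl1, -0.41 ± 0.15 for the receptor gene Acvr2b, 0.19 ± 0.08 for Bmpr1a and -0.21 ± 0.09 for Bambi (limma adjusted p = 0.291 to 0.362). For the BPA difference by age, Crim1, which encodes a membrane protein that binds BMPs, moved with the BPA P0 array, where it read 235 against 467 to 654 elsewhere. Its term was -0.87 ± 0.17 per age step (limma adjusted p = 0.327), and was -0.37 without BPA P0 and -1.36 without BPA E17. Smad1 (-0.27 ± 0.09), Id4 (-0.29 ± 0.12), Bmp1 (0.27 ± 0.11) and Smurf1 (0.39 ± 0.17) had limma adjusted p = 0.509 to 0.587. Without BPA P0 the terms of Smad1, Id4 and Smurf1 were -0.11, -0.15 and 0.0064, and without Control P0 those of Smad1 and Id4 were -0.15 and 0.044. Without BPA E17 those of Smad1 and Smurf1 were -0.42 and 0.76, and without Control E17 that of Id4 was -0.63. For DES 0 of 42 had an unadjusted p under 0.05.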

How the data were processed

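The values used are linear intensities per probe set as the authors deposited them. The submitters' processing notes name MAS5; its version and scaling target are not given in the sources used here. There were 45101 probe sets on 9 arrays, with 0 missing values and 0 identical pairs of arrays. Array trimmed means differed, so values were quantile-normalised with limma 3.58.1 in R 4.3.3 and moved to log2 after adding 5.46, the 10th percentile of signal, which understates changes of dim genes. Names came from the platform annotation: 34945 probe sets had 1 symbol, 932 had several and were left out, and 9160 had none; 64 control probe sets were also left out. A probe set was tested where its mean log2 value reached the 40th percentile (5.54, a signal of 41.2), which 26383 did. Tests ran with lmFit and eBayes (intensity trend) on age and agent as factors, with 4 residual degrees of freedom. Benjamini-Hochberg adjustment ran over all of them, with a threshold of 0.05. A model with a linear age term per agent, with 2 residual degrees of freedom, tested whether differences changed with age. The fits were tested on simulated data. Arrays are few, which limits precision, and intensities carry no count depth.

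The members, lists and tests were chosen with earlier results of these data known. Fitted differences were printed where the unadjusted p was under 0.05, with intervals given for other members, and at most 5 other pathway genes per comparison, smallest p first. Alternatives were the deposited and trimmed-mean scalings, pseudocounts of 1 and 16, no filter or the 60th percentile, 1 probe set per gene, no trend, fits without single arrays or pairs of them, fits on the groups compared, and no age term.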

Additional observations from a re-analysis of the deposited data

How the results depend on the processing

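No member probe set passed the adjusted threshold in any comparison under any of the 21 alternatives that could be fitted for it. Leaving out each array in turn gave 0 to 0 member calls. Of 751 alternative values of the 40 printed differences, 735 kept their direction and side of the threshold and 10, all of them of Hjv, Crim1, Fst or Fstl1, came to pass it. The other 6 turned sign. With intensities as deposited these were Fstl1 (-0.038) and Gdf10 (-0.061) for P0 minus E17 and Bmp1 (-0.029) for the BPA difference by age, with the all-probe-set median at -0.30 in the age comparison and -0.26 in the other. Leaving out single arrays moved the BPA-by-age term of Id4 from -0.63 (without Control E17) to 0.044 (without Control P0), and that of the brightest Id2 probe set from -0.54 (without BPA E17) to 0.052 (without BPA P0). With E17 as the only BPA array, the BPA difference of Bmp2 was 0.034. With deposited intensities 33 probe sets passed in limma for BPA against Control, 383 for P0 against E17 and 428 for the BPA difference by age, against 0, 24 and 2 after scaling, and 1587 passed for P0 against E17 without DES P0. With no replicate block, that is with the age term left out, 0 members passed and the Id1 difference was -0.23 (limma adjusted p = 0.774, with 0.392 to 1.00 over the alternatives). The age-term models could not be fitted without a pair of arrays. Each agent at each age is 1 array, so an age-specific response and array noise cannot be told apart.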
